A study of Mus musculus with 12 samples.

Results

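Metabotropic glutamate receptors are G protein-coupled receptors that tune transmission at glutamate synapses. The members described here are Grm2, Grm3, Grm4, Grm5, Grm7 and Grm8, and every array probe annotated with one of these symbols was taken. Grm2 had no probe in the annotation and has no value here. The other 5 genes had 12 probes of the 45281 on the array: 3 for Grm5, 1 for Grm3, 4 for Grm7, 2 for Grm4 and 2 for Grm8. A probe was tested where its detection p-value was under 0.05 on at least 4 arrays, which kept 9 of the 12 Grm probes and 23516 of all probes. The probes of a gene are lettered a, b, c and d by their mean level, probe a being the brightest.

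The samples were amygdala tissue of male C57Bl/6J mice 10 weeks old, taken from both sides with a 1 mm punch. There were 3 groups of 4 arrays: mice immobilized and then fear conditioned (IMO_FC), mice only fear conditioned (FC), and home-cage mice with neither treatment (HC). IMO_FC and FC tissue was collected 2 h after conditioning, per the sample titles, while the series' design text speaks of fear expression and extinction. No label gives the interval between immobilization and conditioning, or whether different arrays come from different mice. The p-values therefore reflect the spread among these arrays alone, which may be technical. In such bulk tissue, fewer cells of a type and less RNA per cell cannot be told apart.

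Group I receptors, of which Grm5 encodes mGlu5, couple to Gq and phospholipase C, sit mostly on the edge of the postsynaptic density and are held there by Homer scaffolds. mGlu5 takes part in synaptic plasticity and fear learning in the lateral amygdala. Group II (Grm2, Grm3) and group III (Grm4, Grm7, Grm8) receptors couple to Gi/o, lower cyclic AMP and hold back transmitter release, with Grm3 also made by astrocytes. mGlu7 sits in the active zone of presynaptic terminals, has a low affinity for glutamate, and mice without it are impaired in conditioned fear.

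FC 1 and FC 3 stood apart from the other 10 arrays. They detected 11.7% and 15.9% of probes, against 38.97% to 50.7% on the others, and 2 of the 12 Grm probes each, against 7 to 10. Their signals ranked against those of the other arrays with Spearman rho of 0.219 to 0.312 and 0.314 to 0.409, where the other 10 gave 0.77 to 0.933 among themselves. Each result is therefore given with all 12 arrays and without these 2, which leaves FC with n = 2. Among the other 10, IMO_FC 1 detected the smallest share of probes and was the least like the rest. Its highest rho with any of them was 0.794, where each of the rest reached 0.882 or more. Its limma array weight in the 12-array fit was 0.315, against 1.04 to 4.48 for the rest of the 10. Markers were read beside the tissue label. All 7 basolateral excitatory neuron genes (such as Slc17a7, Neurod6 and Lmo3) were detected on every FC and HC array other than FC 1 and FC 3. At least 6 were detected on every IMO_FC array. On these 10 arrays, 3 to 7 of the 7 central amygdala genes were detected, and 4 or 5 of the 5 striatal genes with a probe. Whether these lists tell amygdala from neighbouring tissue was not tested. The 5 choroid plexus genes averaged 6.71 to 8.55 over the HC arrays, 6.20 to 7.07 over IMO_FC, and 6.00 and 7.48 on FC 2 and FC 4. Of these, Ttr averaged 9.74 in HC, 6.79 in IMO_FC and 7.01 in FC. Kl went the other way, at 10.83 in HC and 11.13 in IMO_FC. IMO_FC 1 detected 1 of 5 endothelial genes, against 4 or 5 on the rest of the 10. The part of these in the Grm values was not tested. Values by array are log2 normalized signals over the 10 arrays unless the 12-array scale is named, and levels of different probes are not comparable.

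**Figure D1:**
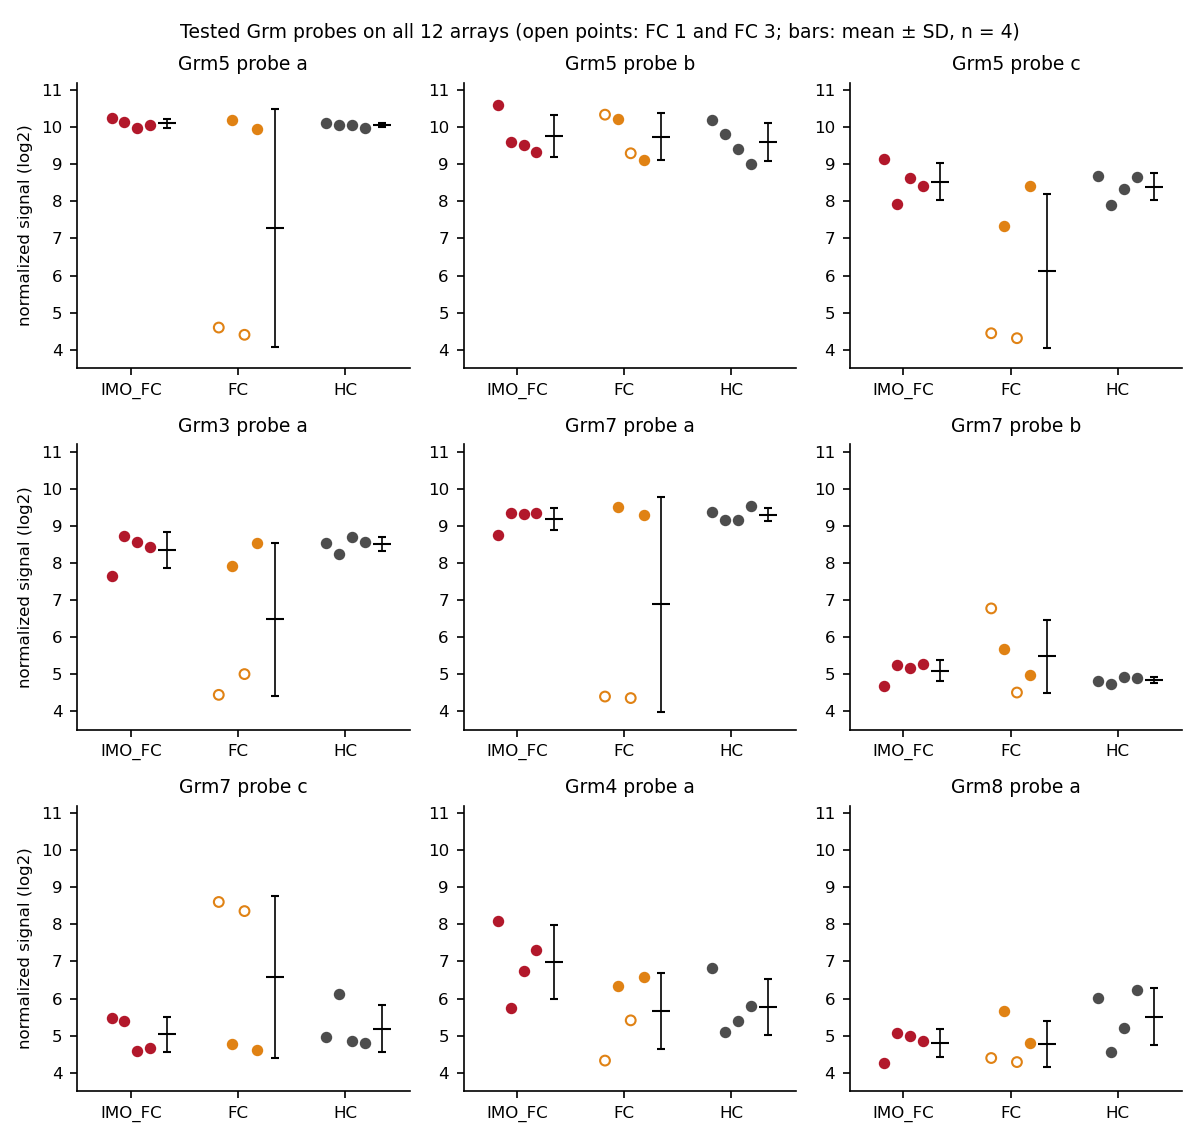
Normalized log2 signal of the 9 tested Grm probes on all 12 arrays, by group, with points for arrays and a bar for mean ± SD (n = 4). Open points are FC 1 and FC 3, which lie between 4.31 and 4.59 for Grm5 probes a and c and Grm7 probe a but at 8.61 and 8.36 for Grm7 probe c.

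Grm5 probe a (ILMN_1242601) was nearly level across the arrays with usable signal. It stood at 10.45, 10.34, 10.18 and 10.27 on IMO_FC 1 to 4, at 10.38 and 10.16 on FC 2 and FC 4, and at 10.33, 10.27, 10.27 and 10.19 on HC 1 to 4. The 3 groups overlapped, and the whole range over these 10 arrays was 1.22-fold. Its SD was 0.093, and 1.38% of the 1232 tested probes within 0.5 of its mean had a smaller one, the median there being 0.24. The IMO_FC mean was 10.31 ± 0.11 and the HC mean 10.27 ± 0.057 (SD, n = 4 each), a difference of 0.04 ± 0.18 (SE, limma adjusted p = 0.999, exact permutation p = 0.571). The 95% interval of that difference ran from −0.35 to 0.44, or from 0.782-fold to 1.36-fold. FC against HC gave 0.0038 (interval −0.48 to 0.49) and IMO_FC against FC gave 0.04 (interval −0.45 to 0.52).

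With all 12 arrays the same probe gave −2.78 ± 1.13 in FC against HC and 2.83 ± 1.13 in IMO_FC against FC. On FC 1 and FC 3 its deposited signal was 35 and 54.7 and the probe was not detected, against 1295 and 1202 on FC 2 and FC 4 and 1006 to 1464 in HC. Neither passed limma's test (adjusted p = 0.297 and 0.356), and the exact permutation p was 0.229 and 0.171.

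Grm5 probe b (ILMN_1226905) was the only Grm probe detected on all 12 arrays. It stood at 10.79, 9.82, 9.74 and 9.56 on IMO_FC 1 to 4, at 10.43 and 9.36 on FC 2 and FC 4, and at 10.40, 10.02, 9.64 and 9.26 on HC 1 to 4. Its spread was thus much wider than that of probe a (SD 0.50 against 0.093 over the 10 arrays) and fully shared by the groups. Without FC 1 and FC 3 the differences were 0.15 ± 0.36 in IMO_FC against HC, 0.06 ± 0.45 in FC against HC and 0.09 ± 0.45 in IMO_FC against FC. On FC 1 and FC 3 its deposited signal was 209 and 178, below the 692 to 1334 of the other arrays. These signals outranked 98.1% and 94.8% of the probes on their own arrays, and normalization over 12 arrays placed them at 10.34 and 9.30, within the range of the rest. The 12-array differences were accordingly small, at 0.14 ± 0.44 in FC against HC and 0.02 ± 0.44 in IMO_FC against FC.

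Grm5 probe c (ILMN_1248753) read 9.38, 8.18, 8.87 and 8.65 in IMO_FC, 7.56 and 8.67 on FC 2 and FC 4, and 8.92, 8.14, 8.58 and 8.90 in HC. FC 2 was the lowest of the 10 arrays, and FC 4 lay inside the HC range. Without FC 1 and FC 3 the differences were 0.13 ± 0.33 in IMO_FC against HC, −0.52 ± 0.41 in FC against HC and 0.65 ± 0.41 in IMO_FC against FC. The values involving FC were, over 12 arrays, −2.27 ± 0.79 against HC and 2.40 ± 0.79 for IMO_FC against FC (adjusted p = 0.297 and 0.356), again with both weak arrays below background at signals of 33.9 and 51.4. The 3 Grm5 probes did not share one order of arrays: FC 2 was the second highest for probes a and b and the lowest for probe c.

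**Figure D2:**
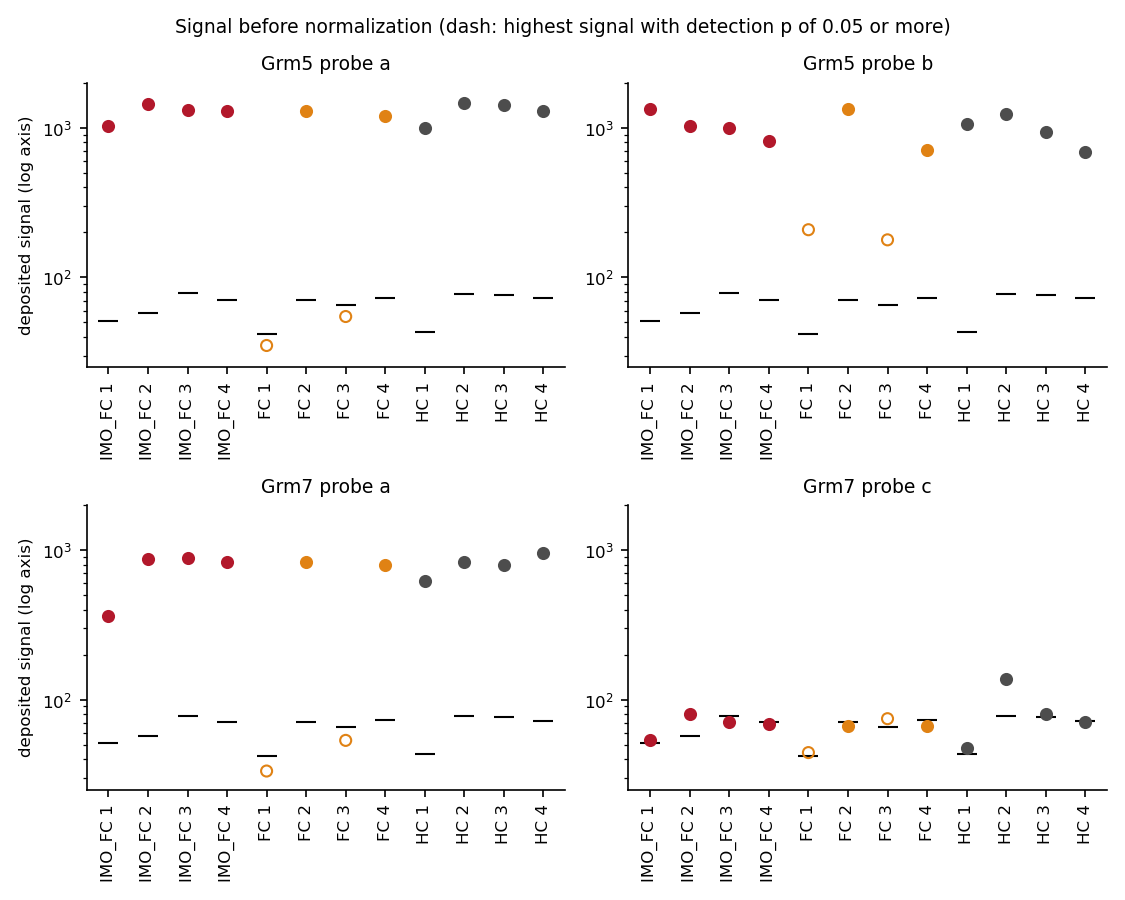
Deposited signal before normalization (log axis) of 4 Grm probes on each array, with a dash for the highest signal on that array whose detection p-value was 0.05 or more. On FC 1 and FC 3 (open points) Grm5 probe a and Grm7 probe a lie under the dash, Grm5 probe b stays above it at 209 and 178, and Grm7 probe c lies just above it at 44.2 and 74.6.

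Grm3 encodes mGlu3, the group II receptor that is also activated by the peptide transmitter N-acetylaspartylglutamate. Its probe (ILMN_1238513) read 7.88, 8.97, 8.81 and 8.66 in IMO_FC, 8.15 and 8.80 on FC 2 and FC 4, and 8.78, 8.48, 8.95 and 8.81 in HC. IMO_FC 1 was the lowest array and FC 2 the next, and the other 8 lay within 8.48 and 8.97. The means were 8.58 ± 0.49 in IMO_FC and 8.75 ± 0.19 in HC (SD, n = 4 each), a difference of −0.17 ± 0.28 with a 95% interval of −0.79 to 0.44. IMO_FC 1 also had the lowest mean over the 7 astrocyte markers, 8.67, of which it detected 6, against 9.29 to 9.60 on the other 9 arrays. Its means were lowest for the general neuron list (10.36, against 10.75 to 11.03) and the basolateral list (8.67, against 9.06 to 9.46) too, and the part of these in its Grm3 value was not tested. Without IMO_FC 1, FC 1 and FC 3 the Grm3 difference was 0.06 ± 0.22. FC against HC gave −0.28 ± 0.34, and IMO_FC against FC 0.11 ± 0.34. With all 12 arrays these were −2.04 ± 0.77 and 1.87 ± 0.77 (adjusted p = 0.297 and 0.356), resting on signals of 33.9 and 58.8 on FC 1 and FC 3 that were not above background.

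Of the group III receptors, Grm7 had the most even probe. Grm7 probe a (ILMN_1247084) read 8.99, 9.57, 9.55 and 9.59 in IMO_FC, 9.72 and 9.53 on FC 2 and FC 4, and 9.60, 9.41, 9.39 and 9.76 in HC. IMO_FC 1 alone lay below the range of the others. The means were 9.42 ± 0.29 in IMO_FC and 9.54 ± 0.18 in HC (SD, n = 4 each), and the difference was −0.12 ± 0.21 with a 95% interval of −0.59 to 0.36, or 0.665-fold to 1.28-fold. FC against HC gave 0.09 ± 0.26 and IMO_FC against FC −0.20 ± 0.26. On the 12-array scale they were −2.42 ± 1.03 and 2.31 ± 1.03 (adjusted p = 0.297 and 0.356), with signals of 33.3 and 53.4 on FC 1 and FC 3 against 831 and 799 on FC 2 and FC 4.

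The dimmer Grm7 probes went other ways. Grm7 probe b (ILMN_2872782), detected on 8 arrays, read 4.73, 5.38, 5.29 and 5.40 in IMO_FC, 5.83 and 5.07 on FC 2 and FC 4, and 4.90, 4.82, 5.03 and 4.997 in HC. Both FC arrays lay above all 4 HC arrays, a difference of 0.52 ± 0.29 (adjusted p = 0.9999; by exact permutation p = 0.0667, the lowest possible for 2 against 4 arrays). IMO_FC 2, 3 and 4 also lay above all HC arrays, while IMO_FC 1 lay below them, a difference of 0.26 ± 0.24 in IMO_FC against HC. Grm7 probe c (ILMN_2684189) read 5.63, 5.54, 4.63 and 4.75 in IMO_FC, 4.84 and 4.66 on FC 2 and FC 4, and 5.07, 6.31, 4.95 and 4.89 in HC. It was detected on 5 of these 10 arrays, and not on IMO_FC 3, IMO_FC 4, FC 2, FC 4 or HC 4. HC 2 stood above all other arrays, and both FC arrays lay below all 4 HC arrays (−0.56 ± 0.45). The same probe had the opposite sign with all 12 arrays, at 1.39 ± 0.84, with FC 1 and FC 3 placed at 8.61 and 8.36. Their deposited signals were 44.2 and 74.6, against 47.5 to 137 on the other arrays, and outranked 91.4% and 89.95% of the probes on their own arrays. Grm7 probe d was detected on 0 arrays and was not tested.

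Grm4, which encodes mGlu4, had the widest spread of the tested Grm probes and the largest difference between IMO_FC and HC. Grm4 probe a (ILMN_1252806) read 8.35, 5.91, 6.97 and 7.54 in IMO_FC, 6.54 and 6.78 on FC 2 and FC 4, and 7.04, 5.23, 5.52 and 5.96 in HC. IMO_FC 1, 3 and 4 and both FC arrays lay above HC 2, HC 3 and HC 4, but IMO_FC 2 lay among them and HC 1 among the IMO_FC arrays, so the groups overlapped. The means were 7.19 ± 1.02 in IMO_FC, 6.66 ± 0.17 in FC (n = 2) and 5.94 ± 0.79 in HC (SD, n = 4 for IMO_FC and HC). The difference between IMO_FC and HC was 1.26 ± 0.52 (2.39-fold, 95% interval 1.08-fold to 5.27-fold) at an unadjusted p of 0.0339 by limma, with adjusted p = 0.999 and exact permutation p = 0.143. With all 12 arrays it was 1.20 ± 0.62 (adjusted p = 1, exact permutation p = 0.143). FC against HC gave 0.72 ± 0.63 without FC 1 and FC 3 and −0.11 ± 0.62 with them, a change of sign. IMO_FC against FC gave 0.53 ± 0.63 and 1.32 ± 0.62.

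The Grm4 values were set beside markers of tissues where Grm4 is abundant. Both arrays highest in their groups, IMO_FC 1 and HC 1, also had the lowest median signals of the 10 arrays, 45.7 and 43.5 against 57.6 to 77.8. The 5 striatal neuron genes on the array of 7 listed averaged 6.80 to 8.18 over the IMO_FC arrays, 6.73 to 7.54 over FC 2 and FC 4, and 6.59 to 7.58 over the HC arrays, with the highest value on IMO_FC 1. The 5 cerebellar granule neuron markers averaged 5.34 to 6.45 over the IMO_FC arrays, 5.39 and 5.88 on FC 2 and FC 4, and 5.54 to 5.80 over the HC arrays, again with the highest value on IMO_FC 1. Of these 5, Zic1 and Neurod1 were detected on all 10 arrays, Zic2 on 3, and Gabra6 and Cbln3 on 0. Among the HC arrays the order differed from that of Grm4 probe a. The striatal list was highest on HC 4 (7.58), with HC 1 next (7.53). The cerebellar list was highest on HC 2 (5.80), where Grm4 probe a was lowest (5.23). The part of the median signals and of both marker lists in the Grm4 values was not tested. Without IMO_FC 1, FC 1 and FC 3 the difference between IMO_FC and HC was 0.87 ± 0.48, and leaving out HC 1 as well gave 1.24 ± 0.40 (adjusted p = 1 in both). Grm4 probe b (ILMN_3162152), detected on 2 of 12 arrays and not tested, averaged 4.64 ± 0.17 in IMO_FC and 4.62 ± 0.33 in HC (SD, n = 4 each), where HC 1 had the highest value of the 10 arrays, 5.11.

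**Figure D3:**
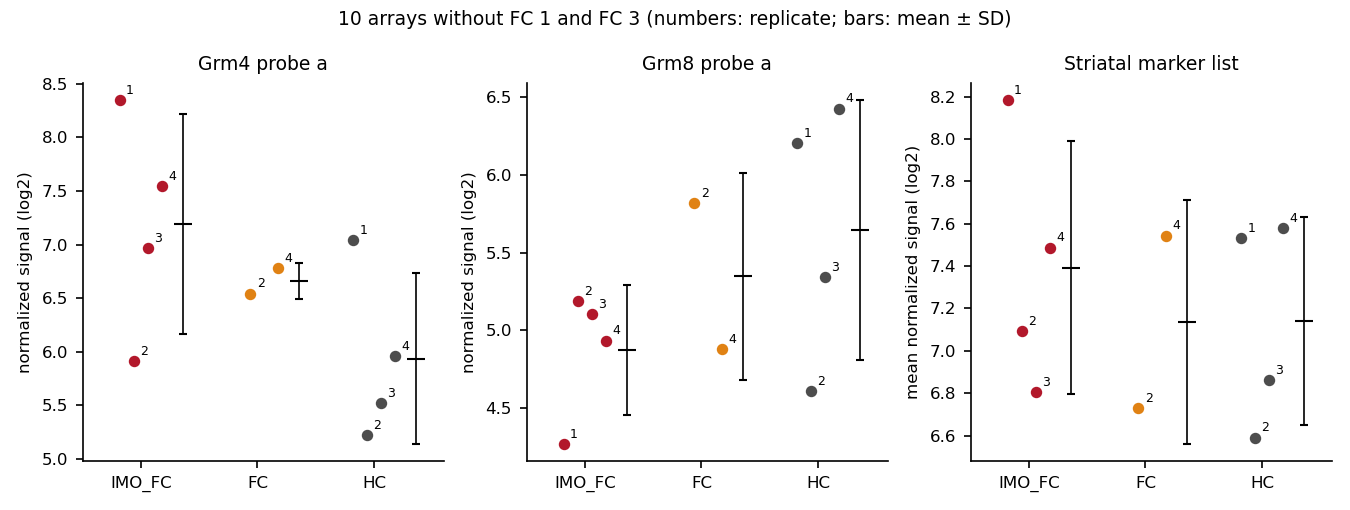
Normalized log2 signal of Grm4 probe a (left) and Grm8 probe a (middle) and the mean log2 signal of the striatal marker genes (right) on the 10 arrays other than FC 1 and FC 3, by group, with replicate numbers and mean ± SD. IMO_FC 1 is highest for Grm4 (8.35) and the striatal list (8.18) and lowest for Grm8 (4.27).

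Grm8 encodes mGlu8, a presynaptic group III receptor of high glutamate affinity. Grm8 probe a (ILMN_2711523) was dim: it read 4.27, 5.19, 5.11 and 4.93 in IMO_FC, 5.82 and 4.88 on FC 2 and FC 4, and 6.20, 4.61, 5.34 and 6.43 in HC. HC 1 and HC 4 were the highest arrays, and HC 2 and IMO_FC 1, where the probe was not detected, the lowest. The means were 4.87 ± 0.42 in IMO_FC and 5.65 ± 0.83 in HC (SD, n = 4 each), a difference of −0.77 ± 0.41 with a 95% interval of −1.69 to 0.14 (adjusted p = 0.999, exact permutation p = 0.2). In fits of 11 arrays that left out 1 array each, this difference was −1.01 without HC 2 and −0.47 without HC 4. FC against HC gave −0.30 ± 0.51 and IMO_FC against FC −0.47 ± 0.51. With all 12 arrays these 3 differences were −0.71 ± 0.46, −0.72 ± 0.46 and 0.010 ± 0.46. Grm8 probe b (ILMN_1220385) was detected on 2 arrays, IMO_FC 4 and HC 3, and was not tested.

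Across the receptors, limma called 0 of the 9 tested Grm probes in each of the 3 comparisons at adjusted p under 0.05, whether or not FC 1 and FC 3 were included. Of all tested probes 0% were called in each. In FC against HC with all 12 arrays, 4 of the 9 had unadjusted p under 0.05 and all 4 were lower in FC (Grm3 probe a, Grm5 probes a and c, Grm7 probe a), where 16.7% of all tested probes were at that level and 12.6% were lower. The median of the 9 was −0.72, against −0.29 over all tested probes. Relative to that shift the 4 stood at −1.74, −2.49, −1.97 and −2.13, in the same order. Without FC 1 and FC 3 none of the 9 had unadjusted p under 0.05, where 3.46% of all tested probes did, and the median was 0.0038 against −0.0012 over all. Then 1 probe lay above HC on both FC arrays (Grm7 probe b, background 5.68%) and 1 below (Grm7 probe c, background 5.66%).

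IMO_FC against FC, which asks what prior immobilization adds, uses the same FC arrays. With every array in the fit, these 4 probes again had unadjusted p under 0.05, all higher in IMO_FC, where 13.7% of all tested probes were at that level and 10.7% were higher. The median of the 9 was 1.32, against 0.28 over all tested probes. Without FC 1 and FC 3, 0 of the 9 did, against 3.5% of all tested probes, and the median was 0.09 against −0.0059. IMO_FC against HC uses no FC array in its means, but limma took its standard errors from the spread within every group, FC included. For Grm5 probe a the standard error was 1.13 over 12 arrays, against 0.18 once FC 1 and FC 3 were left out. For Grm7 probe a it was 1.03 against 0.21. The 12-array fit gave 0 of 9 at unadjusted p under 0.05 (0.4% of all tested probes). With errors this wide, that count cannot decide whether IMO_FC and HC differ. The fit lacking FC 1 and FC 3 gave 1 of 9, Grm4 probe a, on the higher side (3.17% of all tested probes, 1.39% higher). The median of the 9 was 0.04 in both fits, against −0.0056 and −0.0076 over all tested probes, and 0 of the 9 had groups that did not overlap (background 1.19% higher and 1.26% lower without FC 1 and FC 3).

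**Figure D4:**
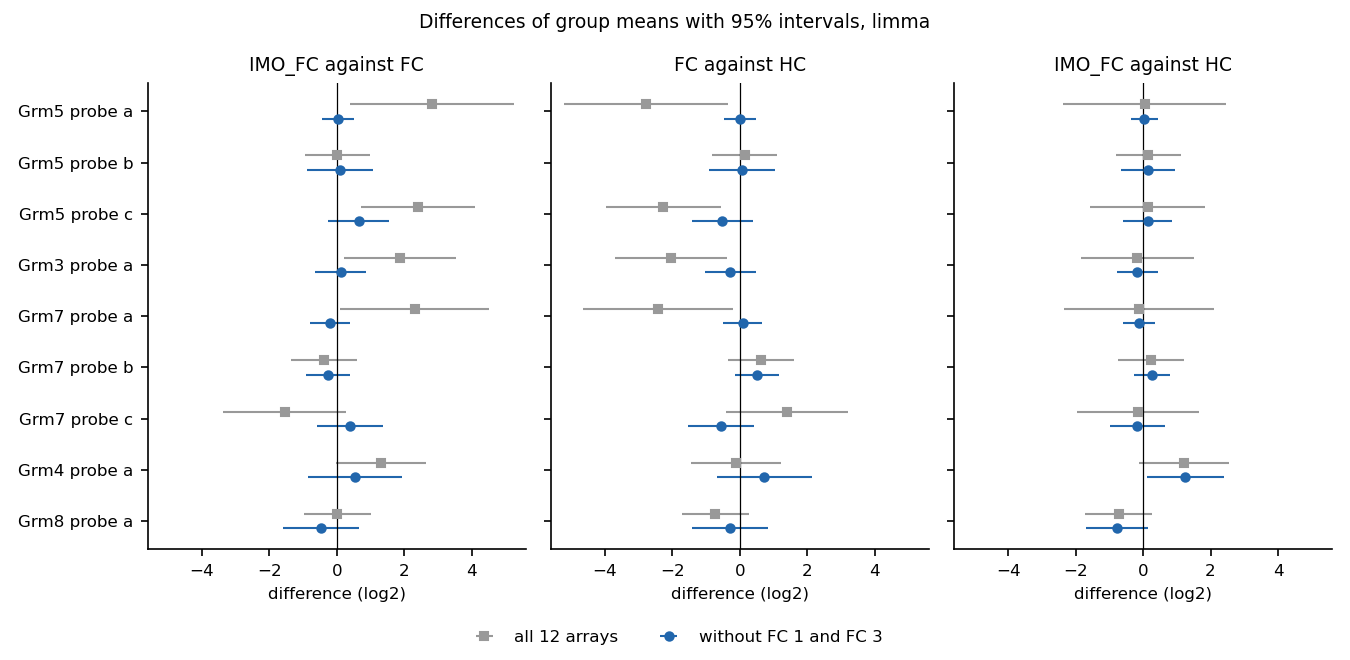
Differences of group means on the log2 scale with 95% intervals from limma for the 9 tested Grm probes in the 3 comparisons, with all 12 arrays (grey squares) and without FC 1 and FC 3 (blue circles). The large values of Grm3 probe a, Grm5 probes a and c and Grm7 probe a in the comparisons with FC, −2.78 to −2.04 against HC, lie between −0.52 and 0.09 without those arrays.

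The partners of these receptors were read from 4 lists, each gene by its brightest tested probe. Glutamate supply and clearance had 14 of 17 genes tested, group I effectors and scaffolds 24 of 27, group II and III effectors 25 of 26, and regulators and binding partners 23 of 29. None of the lists had a gene with adjusted p under 0.05 in any comparison, with or without FC 1 and FC 3. In IMO_FC against HC without those arrays the list medians were −0.10, 0.08, −0.04 and −0.03, against −0.02 over all 11575 genes, and 0 genes of the 4 lists had unadjusted p under 0.05, against 3.29% of all genes. At that level FC against HC gave 2 genes of the 4 lists, both higher (3.17% of all genes in either direction), and IMO_FC against FC gave 1 higher and 2 lower (3.15%), shares near the background. In FC against HC, again without them, the medians were 0.17, 0.22, −0.05 and 0.20 against −0.010 over all genes, with 10 of 14, 18 of 24, 9 of 25 and 13 of 23 genes higher, where 48.9% of all genes were. In IMO_FC against FC they were −0.18, −0.14, 0.0060 and −0.17, against −0.0099 over all genes. With all 12 arrays the medians in FC against HC were −0.099, −0.53, −0.79 and −0.92, against −0.34 over all genes.

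Homer1 and Homer2, which tether mGlu5 to its calcium stores, gave 0.17 ± 0.28 and 0.18 ± 0.27 in IMO_FC against HC without FC 1 and FC 3, and 0.40 ± 0.34 and 0.31 ± 0.33 in FC against HC. Elfn1 and Elfn2, postsynaptic adhesion proteins that bind group III receptors across the synapse, gave 0.27 ± 0.35 and 0.09 ± 0.32 in IMO_FC against HC. The following genes were named for the smallest p-values of their list in a comparison without FC 1 and FC 3, so their sizes are no separate support, and limma's adjusted p was 0.999 or above for each. Dagla, the lipase that makes an endocannabinoid downstream of mGlu5, averaged 5.29 ± 0.30 in IMO_FC (n = 4), against 6.12 ± 0.41 in FC (n = 2), a difference of −0.83 ± 0.32, and FC stood 0.74 ± 0.32 above HC. Shank1, a scaffold that binds Homer, gave 1.08 ± 0.53 in FC against HC and 0.75 ± 0.43 in IMO_FC against HC. Trpc1, a cation channel subunit opened downstream of group I receptors, gave −0.37 ± 0.25 in IMO_FC against HC, and Eef2k, a kinase of translation elongation, −0.54 ± 0.28 in IMO_FC against FC.

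Kcnj6, a potassium channel subunit opened by Gi/o-coupled receptors, averaged 8.26 ± 0.69 in IMO_FC and 7.51 ± 0.11 in HC (SD, n = 4 each). Its groups did not overlap (difference 0.75 ± 0.35, by exact permutation p = 0.0286, the lowest possible with 4 per group). The same was so for 1.19% of all tested probes on the higher side. Kcnj6 was picked by its p-value among the 25 tested genes of its list, so this p-value is no separate support. Overlap was not counted over the lists. Kcnj6 also stood 0.96 ± 0.43 above HC in FC. Kcnj3, its partner subunit, gave −0.90 ± 0.46 in FC against HC and 0.76 ± 0.46 in IMO_FC against FC. Of the G protein subunits, Gnaz gave 0.52 ± 0.29 in IMO_FC against HC and Gnai2 −0.59 ± 0.37 in IMO_FC against FC. Of the desensitizing kinases, Grk3 gave 1.15 ± 0.45 in IMO_FC against FC and −0.85 ± 0.45 in FC against HC, and Grk5 gave −0.55 ± 0.29 in IMO_FC against HC. The arrestin Arrb2 gave −1.28 ± 0.54 in IMO_FC against FC and −0.70 ± 0.44 in IMO_FC against HC, and Pick1, which binds mGlu7, gave −0.37 ± 0.24 in FC against HC. Among the genes of glutamate supply, the cystine-glutamate exchanger Slc7a11 gave −1.17 ± 0.75 and the peptidase Naalad2 −0.77 ± 0.50 in IMO_FC against HC, and Naalad2 −1.01 ± 0.61 in IMO_FC against FC. The vesicular transporters Slc17a7 and Slc17a6 gave 0.42 ± 0.29 and 0.46 ± 0.38 in FC against HC, and Slc17a6 −0.73 ± 0.38 in IMO_FC against FC. Homer3 had no probe under that symbol, and Folh1, which breaks down the mGlu3 agonist peptide, had no tested probe.

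The genes whose log2 values most resembled those of each receptor's brightest probe over the 10 arrays were chosen as the highest Pearson r among 18888 named probes, so high values were sure to be found and no test is given. Grm5 probe a was most like Arhgef4 (r = 0.970, rho = 0.952) and Dmxl1 (r = 0.932, rho = 0.939). Grm3 was most like Utrn (r = 0.985, rho = 0.976) and Gas7 (r = 0.980, rho = 0.915). Grm7 probe a was most like Arap3 (r = 0.955, rho = 0.903) and Snx3 (r = 0.952, rho = 0.855). Grm4 probe a was most like Sox8 (r = 0.937, rho = 0.927) and Pbrm1 (r = 0.930, rho = 0.976). Grm8 probe a was most like Ctsh (r = 0.946, rho = 0.939) and Ehmt2 (r = 0.931, rho = 0.976). These points share arrays, labelling and normalization, and IMO_FC 1 was an extreme point for all 5 probes, the lowest for Grm3, Grm7 probe a and Grm8 probe a and the highest for Grm4 probe a and Grm5 probe a.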

How the data were processed

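RNA was purified with an RNeasy kit and labelled with biotin by the MessageAmp procedure, per the labels. The deposited table holds signal intensity and a detection p-value for each probe and array, per the file headers. The authors' normalized intensity table, whose method is not given in the sources used here, served as an alternative. Signals were background corrected with limma's nec from the detection p-values (offset 16), quantile normalized and taken to log2, anew for each set of arrays. A single limma model with a mean per group gave the 3 contrasts, with Benjamini-Hochberg adjustment across the whole set of tested probes (23516 with 12 arrays, 23260 without FC 1 and FC 3). Exact permutation tests were two-sided over arrays. The number of arrays limits the precision. Symbols came from GEO's platform annotation, where 34885 probes had 1 symbol, 18 several and 10378 none. All Grm probes were reported, and list genes were named if among the 2 smallest unadjusted p-values of their list in a comparison without FC 1 and FC 3, or fixed by name. Members and lists were chosen with earlier results of these data known. The procedure was tested on simulated data. Alternatives were other background corrections, scalings and filters, array weights, the replicate number as a block, and arrays left out. R 4.3.3 and limma 3.58.1 were used.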

Additional observations from a re-analysis of the deposited data

Results flagged for a closer look

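Of 27 sets of 4 arrays (9 tested Grm probes in 3 groups, all 12 arrays), 2 held a value whose gap to the nearest other was above Dixon's limit for 4 values, where chance gives about 1 in 20. Grm7 probe a stood at 8.74 on IMO_FC 1, against 9.32 to 9.36 on the other IMO_FC arrays. Grm7 probe c stood at 6.12 on HC 2, against 4.81 to 4.96 on the other HC arrays.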

How the results depend on the processing

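Limma called 0 of the tested Grm probes in each comparison under all 22 alternatives. Of 567 single-probe values, 502 kept their sign and their side of the threshold, 65 changed sign, and the lowest adjusted p was 0.0545 (Grm5 probe c, FC against HC, without FC replicate 4). The authors' normalized values and no background correction changed no sign. No detection filter and the strict filter (detection p under 0.01 on all 12 arrays, which kept Grm5 probe b alone) reuse the same normalized values. They could change a p-value but not a difference, so their signs among the 502 were fixed in advance. Same-numbered arrays gave r from −0.14 to 0.19 (8 pairs), and differently numbered arrays −0.22 to 0.22 (24 pairs). These r were taken over probes after subtracting each group's mean, and FC held only FC 2 and FC 4. Their values are then mirror images, so an array's r with FC 2 is exactly minus its r with FC 4. The overlap of the ranges is therefore partly set by this step. Whether the replicate numbers mark paired samples cannot be told from these r. The replicate number as a block also leaves the differences unchanged, since every group holds the same numbers. It called 0 probes in each comparison, and the lowest adjusted p of a Grm probe was 0.27 in FC against HC. Over all probes, array weights called 2 in IMO_FC against HC, and leaving out FC replicate 4 called 58 in FC against HC and 76 in IMO_FC against FC, 0 of them Grm probes. No slide block was run, as the slides are not given in the sources used here.

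Values that changed sign follow, and the cause was not tested. Median scaling gave −0.98 and −0.30 for Grm5 probe b and Grm7 probe c in FC against HC, −0.032 for Grm5 probe a in IMO_FC against HC, and 0.10 and −0.060 for Grm7 probe b and Grm8 probe a in IMO_FC against FC. Without FC 1 and FC 3, FC against HC gave 0.72, 0.0038, 0.087 and −0.56 for Grm4 probe a, Grm5 probe a, Grm7 probe a and Grm7 probe c, and IMO_FC against FC gave −0.20, 0.39 and −0.47 for Grm7 probes a and c and Grm8 probe a. Array weights gave 0.68 and −0.38 for Grm4 probe a and Grm7 probe c in FC against HC. They gave 0.022, −0.013, −0.14 and 0.050 for Grm3 probe a, Grm5 probes a and b and Grm7 probe a in IMO_FC against HC, and −0.24 and −0.29 for Grm5 probe b and Grm8 probe a in IMO_FC against FC.

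Both further fits were chosen after the values were seen. Without FC 1, FC 3 and IMO_FC 1, FC against HC gave 0.73, 0.0035, 0.087 and −0.58 for Grm4 probe a, Grm5 probe a, Grm7 probe a and Grm7 probe c. IMO_FC against HC gave 0.062, −0.0042, −0.12, −0.070 and 0.031 for Grm3 probe a, Grm5 probes a, b and c and Grm7 probe a. IMO_FC against FC gave −0.0077, −0.18, −0.056, 0.24 and −0.28 for Grm5 probes a and b, Grm7 probes a and c and Grm8 probe a. Leaving out HC 1 as well, which left Grm7 probe c untested, gave 1.10, 0.024 and 0.11 for Grm4 probe a, Grm5 probe a and Grm7 probe a in FC against HC. It gave 0.069 and 0.053 for Grm3 probe a and Grm7 probe a in IMO_FC against HC, and −0.0072, −0.18, −0.056 and −0.28 for Grm5 probes a and b, Grm7 probe a and Grm8 probe a in IMO_FC against FC.

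Leaving out 1 array at a time gave, in FC against HC, −0.41 to 0.34 for Grm4 probe a and −0.060 to 0.35 for Grm5 probe b. In IMO_FC against HC it gave −0.30 to 0.062 for Grm3 probe a, −0.0042 to 0.090 for Grm5 probe a, −0.13 to 0.35 for Grm5 probe b, −0.071 to 0.33 for Grm5 probe c, −0.18 to 0.031 for Grm7 probe a and −0.31 to 0.15 for Grm7 probe c. In IMO_FC against FC it gave −0.26 to 0.21 for Grm5 probe b, −0.74 to 0.045 for Grm7 probe b and −0.16 to 0.30 for Grm8 probe a. The differences of Grm4 probe a, Grm7 probe b and Grm8 probe a in IMO_FC against HC kept their sign. Grm4 probe a ran from 0.83 (without IMO_FC 1) to 1.61 (without IMO_FC 2). Grm7 probe b ran from 0.18 (without IMO_FC 4) to 0.40 (without IMO_FC 1). Grm8 probe a ran from −1.01 (without HC 2) to −0.47 (without HC 4). Grm7 probes b and c and Grm8 probe a, which are near background, each changed sign in IMO_FC against FC under at least 1 alternative. So did Grm5 probes a and b and Grm7 probe a, which are far brighter.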

Other observations

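Grm5 probe b lay at similar levels on arrays with the same replicate number. On the 12-array scale the arrays numbered 1 stood at 10.61, 10.34 and 10.21 (IMO_FC, FC, HC), those numbered 2 at 9.61, 10.24 and 9.81, those numbered 3 at 9.52, 9.30 and 9.41, and those numbered 4 at 9.33, 9.12 and 9.03. With the number as a block over all 12 arrays the standard error of its differences was 0.35, against 0.44 without. The block also lowered the standard error for Grm3 probe a, Grm5 probe a and Grm7 probes a and c. It raised that of Grm4 probe a, Grm5 probe c, Grm7 probe b and Grm8 probe a. The pattern of Grm5 probe b was noticed after the values were seen, so its smaller standard error is no separate support. No label says what the numbers mark. On the same scale and apart from FC 1 and FC 3, Grm5 probe a was also highest on the array numbered 1 in IMO_FC (10.25) and HC (10.13), within a narrower range of 9.97 to 10.25 in IMO_FC and 9.99 to 10.13 in HC. A difference of Grm5 between conditions of 1.5-fold would lie outside the 95% interval of probe a but inside that of probe b in each comparison without FC 1 and FC 3. For probe c it would lie inside in either direction in IMO_FC against HC (0.658-fold to 1.83-fold). In FC against HC it would do so only if lower in FC (0.373-fold to 1.31-fold). In IMO_FC against FC it would do so only if higher in IMO_FC (0.84-fold to 2.94-fold).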
